A study of Mus musculus with 2 samples.

Results

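The Toll-like receptor family was followed here as 10 genes, namely Tlr1, Tlr2, Tlr3, Tlr4, Tlr6, Tlr7, Tlr8, Tlr9, Tlr13 and the co-receptor gene Cd14. They were taken by symbol from the 31053 genes of the count matrix, and each symbol matched 1 row. Toll-like receptors are membrane proteins of innate immune cells that recognise conserved microbial molecules and products of damaged cells. Tlr1, Tlr2, Tlr4 and Tlr6 act at the cell surface on lipopeptides and lipopolysaccharide, which CD14 hands to them, whereas Tlr3, Tlr7, Tlr8, Tlr9 and Tlr13 act in endosomes on nucleic acids. Nearly all of them signal through MYD88 to NF-kB and interferon regulatory factors, while TLR3 uses TRIF, and in tumours they are known mainly from myeloid cells and dendritic cells (DCs).

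Live CD45+ cells were sorted from B16 melanoma tumours of mice 8 weeks of age, and 1 single-cell 3' library was made for each genotype. The WT mice were Mettl3 fl/fl Lyz2 +/+ and so carried the floxed alleles without Cre. The KO mice were Mettl3 fl/fl Lyz2 cre/+, in which Cre is driven from the Lyz2 locus in macrophages, monocytes, most granulocytes and a few DCs, to remove the m6A methyltransferase METTL3. Several mice were pooled in each library, so no value has a replicate, no test of genotype was possible, and every interval is a 95% interval that covers counting error only. A ratio between the libraries therefore compares 2 libraries and not 2 genotypes.

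Unique molecular identifiers (UMIs) came to 45963969 over 5895 barcodes in the WT-labelled library and to 54052317 over 8446 barcodes in the KO-labelled library. Of these, 5405 and 7625 cells were kept, with a median of 4148 and 3567 UMIs per cell, and 13 barcode sequences occurred in both libraries. Wherever values are paired below, the WT-labelled library comes first, and brackets after a level or a ratio hold its 95% interval. A level is the sum of a gene's UMIs over the cells of a class, per 1000000 UMIs of that class (CPM). Mettl3 itself was at 9.84 CPM (8.48 to 11.4) in macrophage-like cells of the WT-labelled library and at 10.8 (9.32 to 12.5) in those of the KO-labelled library, so its UMIs did not tell the labels apart. Which exons were deleted is not given in the sources used here, and a 3' tag outside them would check nothing. Lyz2, in whose locus the Cre lies, was at 0.46 times the WT-labelled level in macrophage-like cells of the KO-labelled library (0.45 to 0.46) and at 0.39 times in monocyte-like cells (0.39 to 0.40). Cells were assigned to classes by marker genes that include no member, and 11 classes had at least 50 cells in each library. Granulocyte-like cells were shallow, with a median of 1309 and 1019 UMIs per cell against 9587 and 6921 in macrophage-like cells.

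A 3' read is assigned to a gene only where its sequence is unique, and this set apart 1 pair of members. Tlr1 and Tlr6 lie next to each other on the minus strand of chromosome 5, 18467 bp apart, at chr5:64924679-64933563 and chr5:64952031-64960097 (GRCm38, GENCODE M21). Of the 31-base words in the last 1000 bases of the Tlr1 transcripts, 41.7% also occurred in a Tlr6 transcript, whereas 0.95% of those at the Tlr6 ends were shared, nearly all of them repeats found in many genes. Tlr4 shared 1.60% and the other members none. The longest identical run in the coding part ran for 208 bases, at chr5:64925291-64925498 in Tlr1 and chr5:64953582-64953789 in Tlr6. It ended 611 bases before the end of the Tlr1 transcript and 1551 bases before the end of the Tlr6 transcript, and it is shown because a read from within it cannot be given to either gene:
Tlr1 and Tlr6 shared run: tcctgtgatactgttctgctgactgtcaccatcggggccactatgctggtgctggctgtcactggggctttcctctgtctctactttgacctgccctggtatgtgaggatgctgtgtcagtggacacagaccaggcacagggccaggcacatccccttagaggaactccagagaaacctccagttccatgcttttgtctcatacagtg
Levels of Tlr1, and less so of Tlr6, are uncertain for this reason. Tlr7 and Tlr8, which are neighbours on the X chromosome 40599 bp apart, shared no such word with any gene. Tlr3 overlaps the gene Gm45542 on the other strand.

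RefSeq promoter sequences (GRCm38.p6) were read for 7 of the 10 members, and those of Tlr4, Tlr7 and Cd14 were not read. The 250 bases upstream of the start are shown for 4 members, of which Tlr2 and Tlr13 were highest in granulocyte-like cells, Tlr3 in cDC1-like cells and Tlr9, from few UMIs, in plasmacytoid DC (pDC)-like cells. Capitals mark matches, on either strand, to the interferon-stimulated response element GAAANNGAAA, the PU.1 motif GAGGAAGT, the NF-kB motif GGGANTTTCC or the AP-1 motif TGANTCA.
Tlr2, chr3:83841609-83841858, minus strand: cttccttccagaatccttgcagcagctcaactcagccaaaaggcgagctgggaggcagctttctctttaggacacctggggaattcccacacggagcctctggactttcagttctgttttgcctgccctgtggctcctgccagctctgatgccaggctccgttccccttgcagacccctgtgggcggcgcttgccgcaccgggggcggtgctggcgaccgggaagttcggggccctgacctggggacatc
Tlr3, chr8:45410381-45410630, minus strand: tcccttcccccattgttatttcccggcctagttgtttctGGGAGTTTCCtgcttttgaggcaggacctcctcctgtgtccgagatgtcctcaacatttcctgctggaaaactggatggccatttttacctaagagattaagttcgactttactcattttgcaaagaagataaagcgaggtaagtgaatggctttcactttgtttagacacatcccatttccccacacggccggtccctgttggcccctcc
Tlr9, chr9:106222348-106222597, plus strand: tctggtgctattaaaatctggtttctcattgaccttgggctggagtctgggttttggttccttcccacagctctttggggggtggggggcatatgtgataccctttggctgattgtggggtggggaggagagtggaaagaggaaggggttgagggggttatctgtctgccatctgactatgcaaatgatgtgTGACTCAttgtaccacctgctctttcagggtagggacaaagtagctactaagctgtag
Tlr13, chrX:106143025-106143274, plus strand: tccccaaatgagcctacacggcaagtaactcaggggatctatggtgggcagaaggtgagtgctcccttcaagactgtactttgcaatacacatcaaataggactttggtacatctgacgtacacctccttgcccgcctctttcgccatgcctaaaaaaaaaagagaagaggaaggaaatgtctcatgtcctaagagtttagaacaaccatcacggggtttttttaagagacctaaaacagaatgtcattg
The Tlr3 window held 1 NF-kB match, which begins 211 bases before the start, and such a match occurred in 0.36% of the 32851 RefSeq promoter windows of the same length. The Tlr9 window held 1 AP-1 match, a pattern that is its own reverse complement and occurred in 6.75% of all windows. The Tlr2 and Tlr13 windows held none of these letters. Of the members not shown, 1 of the 2 Tlr1 windows held a PU.1 match (2.44% of all windows), 1 of the 2 Tlr6 windows held 2 overlapping response-element matches (2.98% of all windows), and the Tlr8 window held none. Sequence just downstream of that Tlr6 window was not found in a GENCODE transcript of Tlr6, and the other Tlr6 window held no match.

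Tlr2, the receptor for bacterial lipoproteins that pairs with TLR1 or TLR6, was highest in granulocyte-like cells in both libraries, at 240.5 CPM (206 to 279) in the WT-labelled library and 240.2 (185 to 307) in the KO-labelled library. Monocyte-like cells followed at 104 (96.1 to 113) and 115 (109 to 122), then macrophage-like ones at 68.2 (64.5 to 72.0) and 78.9 (74.8 to 83.2), and type 2 conventional DC (cDC2)-like cells at 50.1 (38.9 to 63.4) and 41.9 (32.2 to 53.6). The intervals of the first 3 classes did not overlap within either library. Lymphoid, pDC-like and mature DC-like cells stayed at 4.67 to 15.5, and melanoma-like cells at 2.01 and 1.07.

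Tlr6, the other partner of TLR2, and Tlr4, the receptor for lipopolysaccharide, were also highest in granulocyte-like cells. Tlr6 was at 89.7 (69.3 to 114) and 103 (67.8 to 150) there against 17.3 and 19.4 in the monocyte-like class and 12.6 and 10.8 in the macrophage-like class. Tlr4 was at 81.5 (62.2 to 105) and 83.9 (52.6 to 127), and its macrophage-like levels of 35.5 and 40.9 and monocyte-like levels of 31.5 and 40.03 had overlapping intervals. Melanoma-like cells held Tlr4 at 14.2 (11.4 to 17.6) and 12.4 (10.01 to 15.2), above the 2.09 (0.68 to 4.89) and 2.82 (1.22 to 5.55) of T-like cells, with at least 1 UMI in 39.4% and 28.3% of them at a median depth of 46788 and 34756.5 UMIs. After each cell was thinned to 1000 UMIs these shares were 3.12% (0.86 to 7.81) and 2.03% (0.56 to 5.12), against 0.37% (0.04 to 1.33) and 0.17% (0.00 to 0.93) in T-like cells, and the intervals overlapped.

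Tlr1 was at close levels in macrophage-like cells (36.6 and 35.0), monocyte-like cells (36.6 and 33.2) and B-like cells (46.7, 22.4 to 85.9, and 38.8, 12.6 to 90.5, from 10 and 5 UMIs). In cDC2-like cells it was at 23.2 and 27.9. In granulocyte-like cells the libraries stood apart, with 36 UMIs or 48.9 CPM (34.3 to 67.7) in the WT-labelled library and 2 UMIs or 7.63 CPM (0.92 to 27.5) in the KO-labelled library. These counts did not reach the minimum of 50 UMIs in both libraries together that was set for a call.

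Cd14, which encodes the lipopolysaccharide co-receptor, followed the same order of classes as Tlr2, with intervals that did not overlap between the first 3. It was at 811 CPM (747 to 879) and 511 (428 to 605) in granulocyte-like cells, 160.5 (150.1 to 171) and 167 (159.9 to 175) in monocyte-like cells, and 89.3 (85.1 to 93.7) and 101 (96.3 to 106) in the macrophage-like class. The conventional DC-like classes lay between 25.0 and 49.2, and the lymphoid, pDC-like and melanoma-like classes between 0 and 11.98. In thinned cells, at least 1 Cd14 UMI was found in 38.3% and 31.3% of granulocyte-like, 12.0% and 12.3% of monocyte-like and 9.89% and 9.35% of macrophage-like cells, whereas T-like cells, which should lack the gene, gave 0.37% and 0.84%. Before thinning, the shares were 42.1% and 27.4% in granulocyte-like cells, 43.6% and 38.2% in the macrophage-like class and 2.08% and 2.44% among T-like cells, whose median depth was 2271 and 1780 UMIs.

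**Figure D1:**
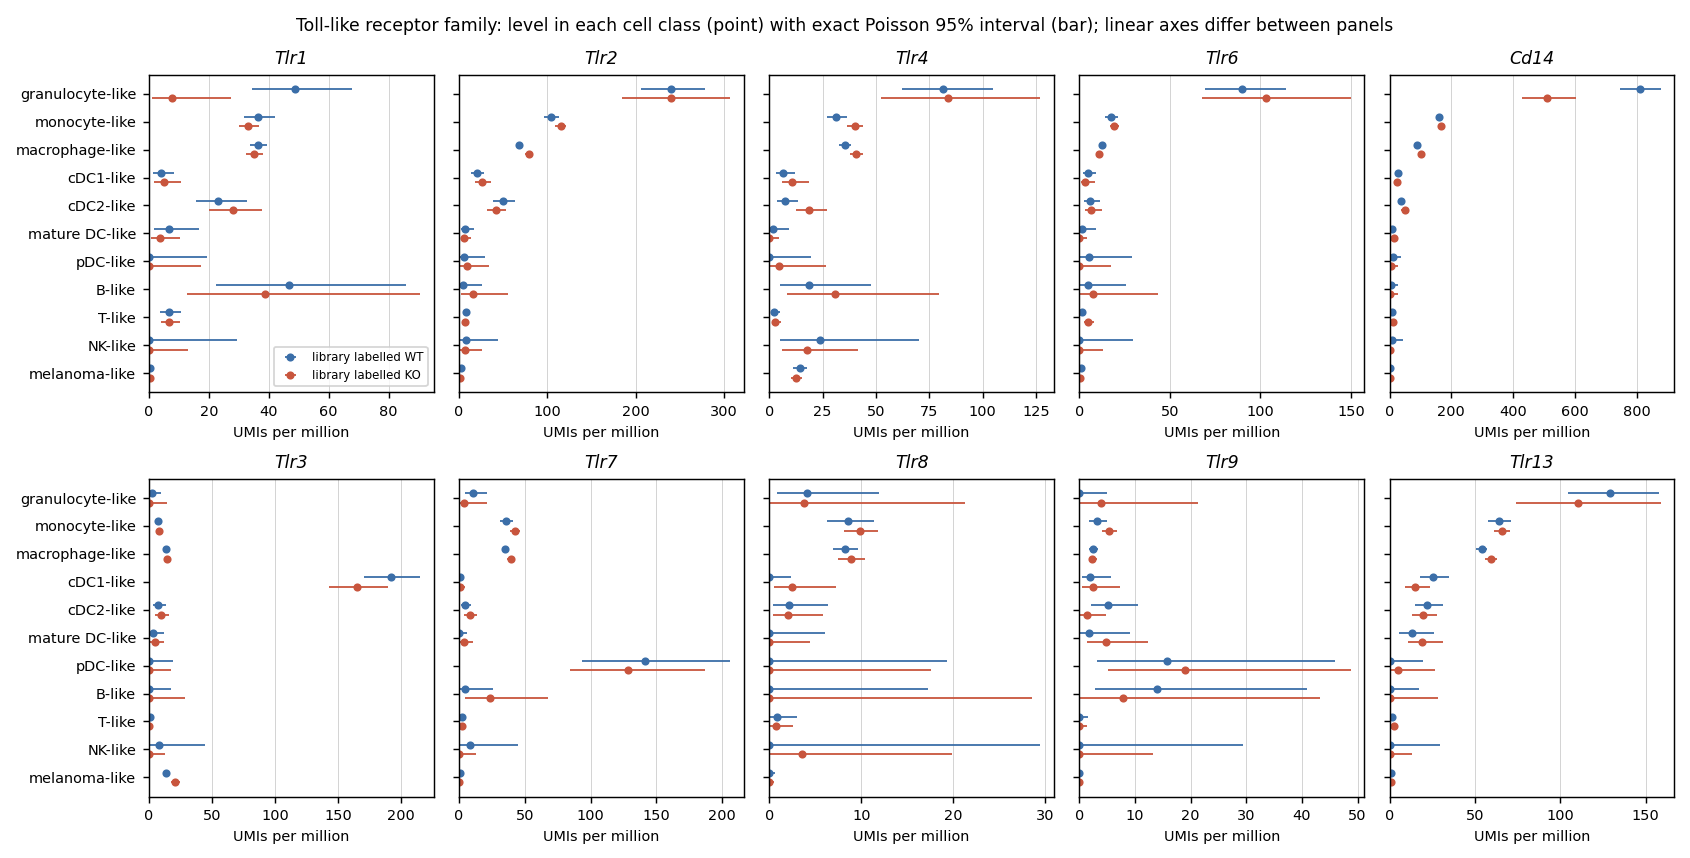
Level of each member in 11 cell classes (rows), in CPM on linear axes that differ between panels. Points are the class sums of the library labelled WT (blue) and of that labelled KO (red), and bars are exact Poisson 95% intervals. Tlr2, Tlr4, Tlr6, Cd14 and Tlr13 were highest in granulocyte-like cells, Tlr3 in cDC1-like cells at 192 and 165, and Tlr7 in pDC-like cells at 142 and 129.

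Of the endosomal members, Tlr13 was highest in granulocyte-like cells and the other 4 were not. Tlr3, the receptor for double-stranded RNA, was at 192 CPM (171 to 215) and 165 (143 to 190) in type 1 conventional DC (cDC1)-like cells, and at most 21.1 in any other class. Of cDC1-like cells, 65.3% and 50.4% had a Tlr3 UMI, and 12.4% (7.53 to 18.9) and 15.4% (9.56 to 23.1) after thinning, whereas 0 of 539 and 0 of 599 thinned T-like cells had one, which allows up to 0.557% and 0.501%. Before thinning, 0.52% and 0.14% of T-like cells had a Tlr3 UMI. Although they made up 2.72% and 1.67% of the kept cells, cDC1-like cells held 41.3% and 26.5% of all Tlr3 UMIs. Melanoma-like cells (13.7, 10.9 to 17.0, and 21.1, 17.9 to 24.6) and macrophage-like cells (13.5, 11.9 to 15.2, and 14.8, 13.1 to 16.7) came next in both libraries, with intervals that overlapped in the WT-labelled library only. The cDC2-like (7.25 and 9.31) and monocyte-like (7.46 and 8.06) classes lay lower, and granulocyte-like cells held 2 Tlr3 UMIs and 0.

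Tlr7, a receptor for single-stranded RNA, was highest in pDC-like cells at 142 (93.4 to 206) and 129 (84.7 to 187), each from 27 UMIs. Monocyte-like cells were at 36.0 and 42.6, and those of the macrophage-like class at 35.3 and 39.6, with overlapping intervals, while cDC1-like cells held 1 UMI in each library (0.65 and 0.83). At least 1 Tlr7 UMI was found in 31.6% and 31.7% of pDC-like cells and, after thinning, in 8.93% (2.96 to 19.6) and 6.35% (1.76 to 15.5), against 0.56% and 0.17% of thinned T-like cells. Tlr7 and Tlr3 were thus highest in different DC classes, and no Tlr3 UMI was seen in the 57 and 63 pDC-like cells, whose depth of 190525 and 210032 UMIs allows up to 15.7 and 14.3 CPM. Tlr8, a neighbour and close relative of Tlr7, was at 8.21 and 8.86 in the macrophage-like class and 8.55 and 9.81 in the monocyte-like class, with overlapping intervals. It was at 0 UMIs in pDC-like, B-like and melanoma-like cells of both libraries.

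Tlr9, the receptor for unmethylated CpG DNA, was sparse, with 86 and 126 UMIs over all kept cells. Its highest level was in pDC-like cells, at 15.7 (3.25 to 46.0) and 19.0 (5.19 to 48.8), but this rested on 3 and 4 UMIs, and the intervals overlapped those of B-like cells (14.0 and 7.75, from 3 and 1 UMIs) and monocyte-like cells (3.09 and 5.26). T-like cells held no Tlr9 UMI, which allows up to 1.26 and 1.06 CPM. Tlr13, which recognises bacterial ribosomal RNA in mice, followed the surface members, with 129 (104 to 158) and 111 (74.1 to 159) in granulocyte-like cells, 63.9 and 65.9 in monocyte-like cells, and 53.8 and 59.1 in the macrophage-like class. The monocyte-like and macrophage-like intervals did not overlap within the WT-labelled library (57.4 to 70.9 against 50.6 to 57.2) but did in the KO-labelled library (61.3 to 70.8 against 55.6 to 62.9).

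Summed over the 10 members, granulocyte-like cells carried 1418 and 1068 CPM, the monocyte-like class 469 and 507, the macrophage-like class 355 and 391, and the T-like class 30.6 and 39.1. A UMI of at least 1 member was found in 84.99% and 80.7% of macrophage-like cells against 70.4% and 57.4% of the shallower granulocyte-like cells. In thinned cells this order turned, to 31.3% and 31.7% against 62.5% and 59.1%. Macrophage-like cells, which were many and deep, held the largest share of the UMIs of 9 members in the WT-labelled library, all but Tlr3. In the KO-labelled library, where 35.7% of kept cells were monocyte-like against 19.8% in the WT-labelled library, monocyte-like cells held the largest share of Tlr6 (41.9%), Cd14 (44.0%) and Tlr9 (47.6%).

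**Figure D2:**
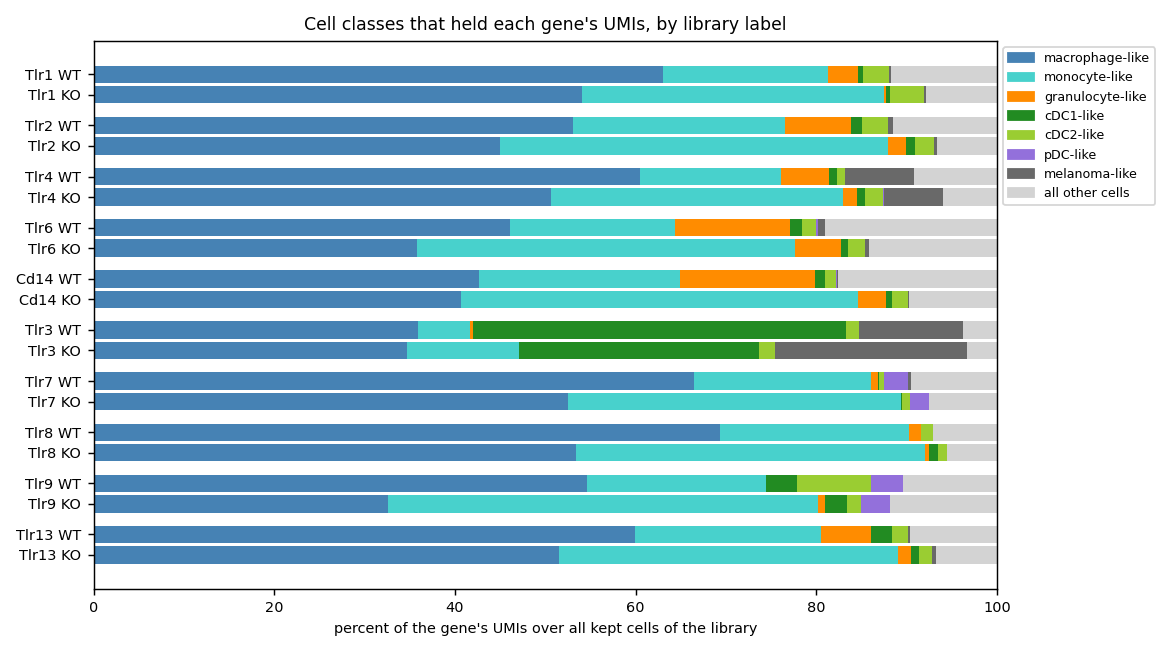
Share of each member's UMIs (percent, x axis) held by each cell class, 1 bar per library label. Macrophage-like cells (blue) held the largest share of most members, and cDC1-like cells (green) held 41.3% and 26.5% of the Tlr3 UMIs, against at most 3.49% of the UMIs of any other member.

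Within the myeloid classes the members differed between clusters of cells, which are named here by their leading genes, and the values are descriptions because these cells were also used to cluster. Whole clusters were given a class by the same markers, and this did not always match the class of the single cell. Clusters named macrophage held 494 monocyte-like cells, and clusters named monocyte held 579 macrophage-like cells. Among macrophage-like cells, Cd14 was at 210.2 and 225 in the Inhba, Mmp12 and Nos2 cluster against 65.8 and 69.1 in the Ch25h, Vcam1 and Ccl8 cluster, which also led in C1qa. Tlr1 ran the other way, at 16.7 (11.9 to 22.8) and 17.1 (12.8 to 22.3) against 44.4 (39.9 to 49.4) and 42.5 (37.6 to 47.8). Tlr4 was highest in the Lyve1 cluster, at 78.6 (53.7 to 111) and 74.4 (50.2 to 106) against 39.97 and 39.8 in the Ch25h cluster. A cluster of 84 and 64 macrophage-like cells led by the T cell genes Cd3e and Cd3d had Cd14 at 103 and 89.9. That cluster as a whole stayed unnamed, with 9 macrophage markers high, and its median depth was 2.51 times that of all kept cells.

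Among monocyte-like cells, those of the Inhba cluster had the highest Cd14, at 458 (405 to 515) and 379 (352 to 407), although that cluster as a whole was named macrophage. Those of the Ace and Adgre4 cluster, genes of patrolling monocytes, had 53.7 and 47.7. The Ace cluster instead held the highest Tlr13, at 98.4 and 97.3, and its Tlr7 was at 47.4 (35.5 to 62.0) in the WT-labelled library and 91.1 (76.9 to 107) in the KO-labelled library. Classical monocyte-like cells led by Dmkn, Nrg1 and Vcan had Tlr2 at 148 and 137 and Cd14 at 222 and 209.9. In the cluster led by the interferon-induced genes Ifit1bl1, Cmpk2 and Rsad2, Tlr3 was at 17.8 (6.54 to 38.8) and 18.5 (12.8 to 26.0), the highest level among the monocyte-like clusters. There Tlr4 was at 20.8 (8.36 to 42.8) and 48.3 (38.6 to 59.7), Tlr2 at 65.4 and 119, and Cd14 at 101 and 176.

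All but 2 granulocyte-like cells fell into a Retnlg and S100a8 cluster of 341 and 172 cells and an Lcn2 and Cxcl2 cluster of 172 and 49 cells. Cd14 was at 549 (486 to 617) and 427 (341 to 527) in the former and at 1384 (1237 to 1544) and 849 (626 to 1126) in the latter. It was thus higher in the Lcn2 cluster in both libraries, and lower in the KO-labelled library within both clusters. Tlr2 lay between 229.9 and 251 in both clusters of both libraries. Tlr1 had 24 UMIs in the Retnlg cluster of the WT-labelled library or 47.5 CPM (30.5 to 70.7), and 0 UMIs in that of the KO-labelled library, which allows up to 15.05 CPM.

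**Figure D3:**
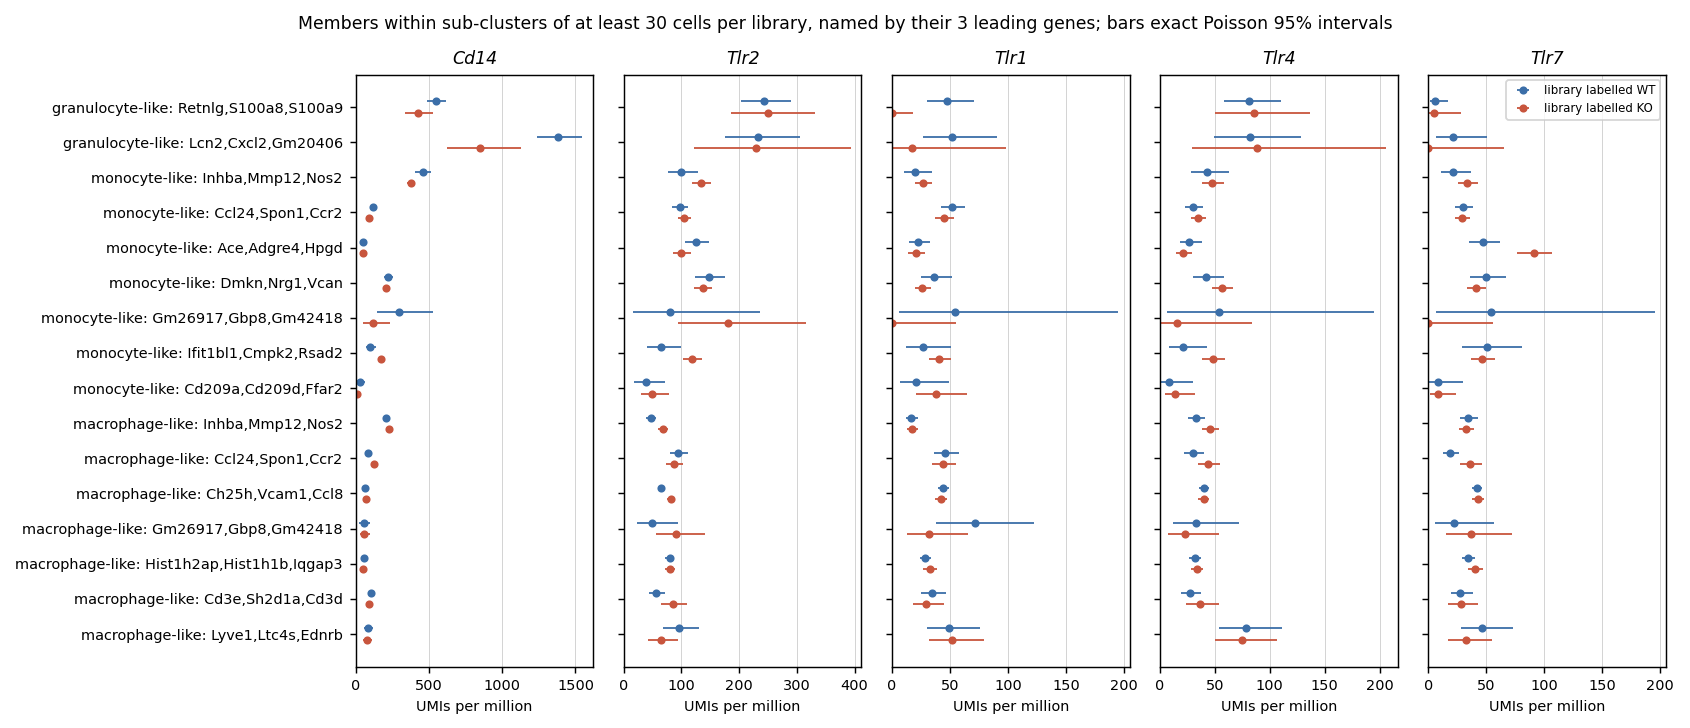
Levels of 5 members (CPM, linear axes that differ between panels) in myeloid sub-clusters of at least 30 cells in each library, named on the y axis by their 3 leading genes. Points are the libraries labelled WT (blue) and KO (red), and bars are exact Poisson 95% intervals. Cd14 reached 1384 and 849 in granulocyte-like cells of the Lcn2 cluster, and Tlr7 differed between the libraries in the Ace cluster, at 47.4 and 91.1.

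Across the 22 class sums (11 classes in 2 libraries, which share a library's depth and free RNA), the pattern of each member was compared with that of 10080 genes by Pearson's r of log2 levels with 1 CPM added, as a description. Cd14 was most like Ccr1, a chemokine receptor (r = 0.97), Gda (0.93) and Ptgs2 (0.93), and Tlr2 was most like Wfdc17 (0.97), Ccl6 (0.95) and C5ar2 (0.94). Tlr13 was most like Bst1 (0.96), Tarm1 and Sqor (0.95 each), Tlr6 like Tgm1 (0.90), Mmp8 and Fpr2 (0.89 each), and Tlr4 like Plekhm1 (0.91), Abca1 (0.86) and Neu1 (0.83). Tlr1 was most like Irak3, which encodes an inhibitor of the same pathway (0.91), then Lepr (0.87) and Rasgef1b (0.83). Among the endosomal members, Tlr3 was most like Fzd1 (0.89), Vwf (0.86) and Ckb (0.82), Tlr7 like Tcirg1 (0.82), Pltp (0.81) and Cybb (0.80), Tlr8 like Siglec1 (0.91), Clec5a (0.88) and Cd93 (0.87), and Tlr9 like Slc15a4, an endolysosomal transporter (0.89), Ero1lb (0.85) and Carmil1 (0.84). Within the family the highest r was that of Tlr2 with Cd14 (0.90) and the lowest that of Tlr3 with Tlr7 (-0.29).

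The contrast of the study, KO against WT, was then read for each member in the classes with at least 100 cells in each library. A gene was called past 1.5-fold when its ratio, taken after adding 1 CPM to both levels, was at least 1.5 in either direction and it had at least 50 UMIs over both libraries. In macrophage-like cells all 10 members could be read and 0 were past 1.5-fold, against 2.37% of 10946 genes. Cd14 was at 1.13 times its WT-labelled level (1.06 to 1.21), Tlr2 at 1.16 (1.07 to 1.25), Tlr4 at 1.15 (1.04 to 1.28), Tlr7 at 1.12 (1.01 to 1.25) and Tlr13 at 1.10 (1.01 to 1.20). The intervals of Tlr1 (0.96, 0.86 to 1.07), Tlr6 (0.86, 0.71 to 1.04), Tlr3 (1.10, 0.92 to 1.31), Tlr8 (1.08, 0.86 to 1.36) and Tlr9 (0.95, 0.61 to 1.47) included 1. The median log2 ratio of the 10 members was 0.13, with 7 above 0, beside 0.01 over all genes tested. In cells thinned to 1000 UMIs the log2 ratios of Cd14, Tlr8 and Tlr13 lay below 0 instead, at -0.14, -0.33 and -0.07, and that of Tlr9 was -1.25. Tlr9 kept 8 and 4 UMIs and Tlr8 kept 19 and 18, both under the minimum for a call. The Inhba cluster, where Cd14 was highest, held 16.4% and 22.5% of the class, and the Ch25h cluster 35.8% and 30.7%. Within clusters, Cd14 was at 1.07 times (log2 0.10, -0.07 to 0.27) in the Inhba cluster, 1.05 (log2 0.07, -0.12 to 0.26) in the Ch25h cluster and 0.90 (log2 -0.15, -0.43 to 0.12) in the Hist1h2ap and Mki67 cluster. It was at 1.54 times (log2 0.62, 0.31 to 0.94) in the Ccl24 cluster, which as a whole was named monocyte, and the intervals of the other 3 clusters included 1.

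In monocyte-like cells 1 of the 10 members was past 1.5-fold, against 4.59% of 9601 genes. It was Tlr9, with 17 UMIs or 3.09 CPM (1.80 to 4.95) in the WT-labelled library and 60 UMIs or 5.26 CPM (4.01 to 6.77) in the KO-labelled library, a ratio of 1.70 (0.98 to 3.11) whose interval includes 1. With 1 CPM added, as for every call, its log2 ratio was 0.61, close to the limit. On that scale it was 0.58 without the unnamed clusters, just short of 1.5-fold, 0.44 with classes taken from named clusters, 0.35 when each cell counted equally and 0.33 when each cluster did. Tlr4 was at 1.27 times (1.07 to 1.52), Tlr7 at 1.18 (0.9998 to 1.40), Tlr2 at 1.10 (1.001 to 1.22) and Cd14 at 1.04 (0.96 to 1.13). The intervals of Tlr1 (0.91, 0.76 to 1.08), Tlr6 (1.12, 0.88 to 1.44), Tlr3 (1.08, 0.74 to 1.60), Tlr8 (1.15, 0.81 to 1.65) and Tlr13 (1.03, 0.91 to 1.17) included 1. With equal weight for each cluster the log2 ratios of Cd14 and Tlr7 were -0.32 and -0.07, and that of Tlr8 was 0.87, past 1.5-fold, against 0.20 over the whole class. In thinned cells the log2 ratio of Tlr2 was -0.05, and that of Tlr4 was 0.86 from 23 and 107 UMIs, past 1.5-fold. The median log2 ratio of the members was 0.15, with 9 above 0, beside -0.00 over all genes.

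In granulocyte-like cells 5 members had 50 UMIs and 1 of them was past 1.5-fold, against 17.7% of 2336 genes, so that the background was high in this class. It was Cd14, with 597 UMIs in the WT-labelled library and 134 in the KO-labelled library, at 0.63 times (0.52 to 0.76) or a log2 ratio of -0.67. In thinned cells, which leaves 397 of 513 and 115 of 223 cells, the levels were 872 and 661 and the log2 ratio was -0.40, and with the stricter cell filter it was -0.54, both short of 1.5-fold. Tlr2 (0.999, 0.74 to 1.34), Tlr4 (1.03, 0.60 to 1.70), Tlr6 (1.15, 0.71 to 1.82) and Tlr13 (0.86, 0.54 to 1.31) had intervals on both sides of 1. The ratio of Tlr1, under the minimum, was 0.16 (0.02 to 0.61), and that of Tlr7, from 8 UMIs and 1 UMI, was 0.35 (0.01 to 2.62). Tlr8 had 3 UMIs and 1, Tlr3 2 and 0, and Tlr9 0 and 1. The median gene of this class had a log2 ratio of 0.11, and trimmed-mean scaling would move every ratio by -0.14. Of the genes past 1.5-fold, 59.3% were higher in the KO-labelled library, but 32.3% were with that scaling, under which Cd14 was at -0.80. Macrophage markers summed to 946 and 679 CPM in the granulocyte-like cells and monocyte markers to 359 and 347, with all 9 and all 7 markers detected in both libraries, and their part in the Cd14 ratio was not tested.

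In cDC1-like cells 4 members had 50 UMIs and 1 was past 1.5-fold, against 9.03% of 5495 genes. It was Tlr13, with 39 and 18 UMIs or 25.5 (18.1 to 34.8) and 15.01 (8.90 to 23.7) CPM, a ratio of 0.59 (0.32 to 1.06) whose interval includes 1. Over 11 settings its log2 ratio, without the added CPM, ran from -1.18 to -0.584, the latter just short of 1.5-fold. Tlr3 was at 0.86 times (0.71 to 1.03), a log2 ratio of -0.22 that became 0.32 in thinned cells. Trimmed-mean scaling took the share of higher genes among those past 1.5-fold in this class from 65.3% to 54.0%. In cDC2-like cells 0 of 4 members were past 1.5-fold, against 7.11% of 5850 genes, and Tlr4, under the minimum with 10 and 28 UMIs, was at 7.25 (3.48 to 13.3) and 18.6 (12.4 to 26.9). The log2 ratios of the 4 members, without the added CPM, moved widely over 12 settings. They ran from 0.002 to 1.94 for Tlr1, 0.14 to 0.90 for Cd14, -0.59 to 0.84 for Tlr13 and -0.30 to 0.10 for Tlr2. In melanoma-like cells 0 of 2 members were past 1.5-fold, against 6.42% of 10003 genes, with Tlr4 at 0.87 times (0.64 to 1.19). Tlr3 lay just under the call there, at 1.54 times (1.17 to 2.03) from 82 and 158 UMIs, and its log2 ratio of 0.62 was 1.04 with each cell counted equally and 1.55 in thinned cells, of which 2 of 128 and 9 of 197 held a Tlr3 UMI. In mature DC-like and T-like cells no member reached 50 UMIs.

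**Figure D4:**
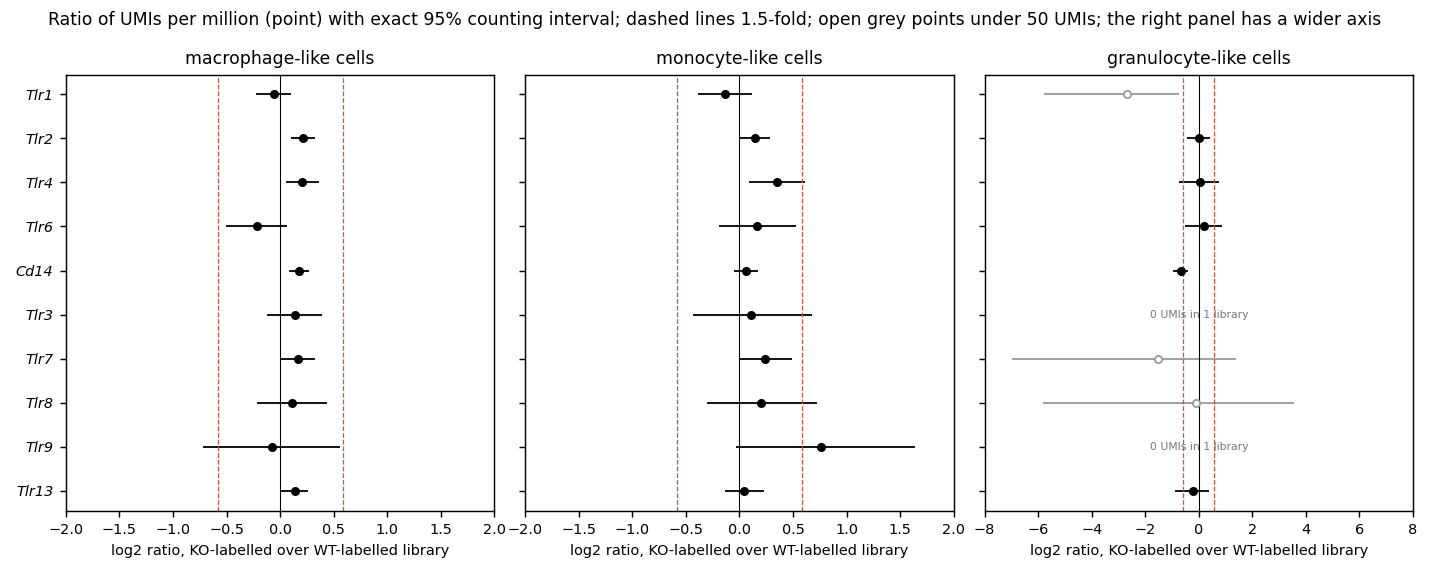
Log2 ratio of each member, KO-labelled over WT-labelled library, in 3 myeloid classes. Points are ratios of CPM, bars exact 95% counting intervals, dashed lines 1.5-fold, and open grey points genes under 50 UMIs, and the right panel has a wider axis. Every member lay within 1.5-fold in macrophage-like cells, Tlr9 lay past it in monocyte-like cells at 0.77, and Cd14 lay past it in granulocyte-like cells at -0.67.

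The 3 Toll-like receptor genes outside the 10 members were read in the same way. Tlr5, the flagellin receptor, was at 0.91 to 3.07 CPM in macrophage-like and monocyte-like cells, and granulocyte-like cells held 6 UMIs and 1 of it. Tlr11, which with TLR12 recognises the parasite protein profilin, was highest in cDC1-like cells, at 57.4 (46.1 to 70.8) and 30.02 (21.0 to 41.6), or 0.52 times (0.34 to 0.78). Tlr12 was highest in pDC-like cells, at 121 (76.5 to 181) and 186 (132 to 254), and at 28.1 (20.3 to 37.8) and 13.3 (7.63 to 21.7) in cDC1-like cells, or 0.48 times (0.25 to 0.86). Tlr11 and Tlr12 were thus past 1.5-fold lower in the KO-labelled library in cDC1-like cells, where 9.03% of genes were past it in either direction. Tlr13 was past it as well, with an interval that included 1 and a log2 ratio of -0.584 under an alternative setting, just short of 1.5-fold. Granulocyte markers summed to 349 CPM in cDC1-like cells of the WT-labelled library, with 8 of 8 detected, and to 21.7 in those of the KO-labelled library, with 4 of 8 detected (Retnlg, Cxcr2, G0s2 and Mmp9 at 0), and their part in these ratios was not tested.

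Genes that carry, guide or transmit Toll-like receptor signals were read from fixed lists of 75 genes. Myd88, the shared adaptor, was at 81.0 and 92.7 CPM in macrophage-like cells (1.14 times, 1.07 to 1.23), 176 and 218 in the monocyte-like class (1.24, 1.15 to 1.34) and 205 and 236 in granulocyte-like cells (1.15, 0.84 to 1.56). Unc93b1, the chaperone that brings the endosomal receptors to their compartment, was at 474 and 484 in the macrophage-like class and 120.9 and 160.1 in granulocyte-like cells, where Ly96, which encodes the TLR4 partner MD-2, had 14 and 3 UMIs. Ly96 was at 40.3 and 36.6 in macrophage-like cells.

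In macrophage-like cells 68 of the 75 list genes were tested, and 1 was past 1.5-fold higher and 3 lower in the KO-labelled library, in the class where 2.37% of all genes were past it (157 higher and 102 lower). The gene higher was Irf7, an interferon-induced transcription factor, at 103 and 209 (2.02 times, 1.91 to 2.14). Those lower were the inflammatory target genes Saa3 (65.5 and 24.8, or 0.38 times), Cxcl1 (7.31 and 4.11, or 0.56) and Cxcl2 (309 and 194, or 0.63), of 13 targets tested. The 8 granulocyte markers, all detected, summed to 521 CPM in macrophage-like cells of the WT-labelled library and 173 in those of the KO-labelled library. The 7 monocyte markers, all detected, summed to 899 and 1333 CPM in the same cells, and the part of either list in the ratios of the members or of these genes was not tested.

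In monocyte-like cells 9 of 68 list genes were past 1.5-fold higher and 2 lower, in the class where 4.59% of all genes were past it (281 higher and 160 lower). Irf7 was at 239.6 and 397 (1.66 times), and 3 of 12 brakes were higher, namely Il1rn, the interleukin-1 receptor antagonist (186 and 415, or 2.23), Socs1 (82.2 and 133, or 1.61) and Tnfaip3 (33.8 and 52.3, or 1.55). Of 13 targets 5 were higher, namely Nos2 (17.3 and 35.0), Cxcl10 (365 and 639), Ccl4 (255 and 444), Ptgs2 (63.0 and 98.9) and Il1a (5 and 51 UMIs), and Saa3 was lower (61.1 and 15.1, or 0.25). Fos, an AP-1 subunit, was lower as well (408 and 263, or 0.64). The median log2 ratio of the 13 targets was 0.33, beside -0.00 over all genes of the class. The class was made up differently in the libraries, with 5.71% and 13.03% of its cells in the Ifit1bl1 cluster and 9.07% and 14.4% in the Inhba and Nos2 cluster, which as a whole was named macrophage. Within the Ifit1bl1 cluster Irf7 was at 0.79 times (0.71 to 0.88), Cxcl10 at 1.01 (0.93 to 1.09) and Ccl4 at 1.51 (1.33 to 1.72). Within the Inhba cluster Irf7 was at 1.85 times (1.56 to 2.22), Cxcl10 at 1.32 (1.04 to 1.71), Nos2 at 1.26 (0.97 to 1.65) and Ptgs2 at 0.93 (0.78 to 1.11). Ptgs2 was at 1.69 (1.23 to 2.35) in the Ccl24 cluster and 1.60 (1.21 to 2.14) in the Dmkn cluster, and its interval included 1 in the others. Among the brakes, Tnfaip3 had an interval that included 1 in each of the 7 clusters of at least 30 cells (1.24, 0.90 to 1.75, in the Inhba cluster). Socs1 had one above 1 in the Inhba (2.07, 1.33 to 3.36) and Dmkn (1.56, 1.27 to 1.91) clusters, and Il1rn in these, the Ccl24, the Ace and the Ifit1bl1 clusters. The ratio of Cxcl10 was 1.97 (1.76 to 2.21) in the Dmkn cluster but 0.85 (0.77 to 0.95) in the Ccl24 cluster, so that it did not have 1 direction over the class. The 8 granulocyte markers, all detected, summed to 271 CPM in monocyte-like cells of the WT-labelled library and 172 in those of the KO-labelled library, and their part in these ratios was not tested.

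In granulocyte-like cells 39 list genes were tested, and 4 were past 1.5-fold higher and 16 lower, in the class where 17.7% of all genes were past it. Of 9 targets 7 were lower, with Cxcl2 at 16169.7 and 5697 (0.35 times, 0.33 to 0.37), Ccl3 at 3323 and 1735 (0.52), Ccl4 at 4011 and 2524 (0.63), Ptgs2 at 876 and 492 (0.56), Tnf at 186 and 99.1 (0.53), Nos2 at 113 and 57.2 (0.51) and Il1a at 107 and 19.1 (0.18). Of 11 brakes 5 were lower, namely Nfkbia, which encodes an inhibitor of NF-kB (1937 and 847, or 0.44), Il1rn (1759 and 988, or 0.56), Tnfaip3 (342 and 214, or 0.62), Tnip1 (132 and 68.6, or 0.52) and Irak3 (130.4 and 49.6, or 0.38). The kinases Irak2 (0.58) and Tbk1 (0.62) and the NF-kB subunits Nfkb2 (0.48) and Rela (0.65) were lower too, the last 3 with intervals that included 1. Those higher were the endolysosomal proteases Ctss (199.7 and 336, or 1.68) and Lgmn (119.6 and 286, or 2.39) and the brakes Cyld (1.57) and Trafd1 (1.53), both with intervals that included 1. The median log2 ratio of the 9 targets was -0.90, beside 0.11 over all genes of the class, and 7 of 9 targets were past 1.5-fold lower also in thinned cells, with the stricter cell filter and with trimmed-mean scaling, while 27.8%, 25.5% and 16.4% of all genes of the class were past it in either direction. The minimum of 50 UMIs was applied before thinning or filtering. Even then Il1a had 0 and 5 UMIs in the Retnlg and Lcn2 clusters of the KO-labelled library. The Lcn2 and Cxcl2 cluster held 33.5% of the class in the WT-labelled library and 22.0% in the KO-labelled library. Within it Cxcl2 was at 0.42 times (0.39 to 0.45), Ccl3 at 0.69 (0.61 to 0.78), Tnf at 0.36 (0.15 to 0.74) and Nfkbia at 0.39 (0.32 to 0.48). In the Retnlg cluster Cxcl2 was at 0.52 times (0.47 to 0.57) and Ccl3 at 0.63 (0.52 to 0.77), whereas Tnf (0.99, 0.54 to 1.74), Nfkbia (0.84, 0.67 to 1.04), Ccl4 (0.88, 0.76 to 1.03), Il1rn (1.13, 0.88 to 1.43) and Tnfaip3 (1.22, 0.75 to 1.95) had intervals that included 1. Since Cxcl2 is a leading gene of the Lcn2 cluster, these are descriptions.

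**Figure D5:**
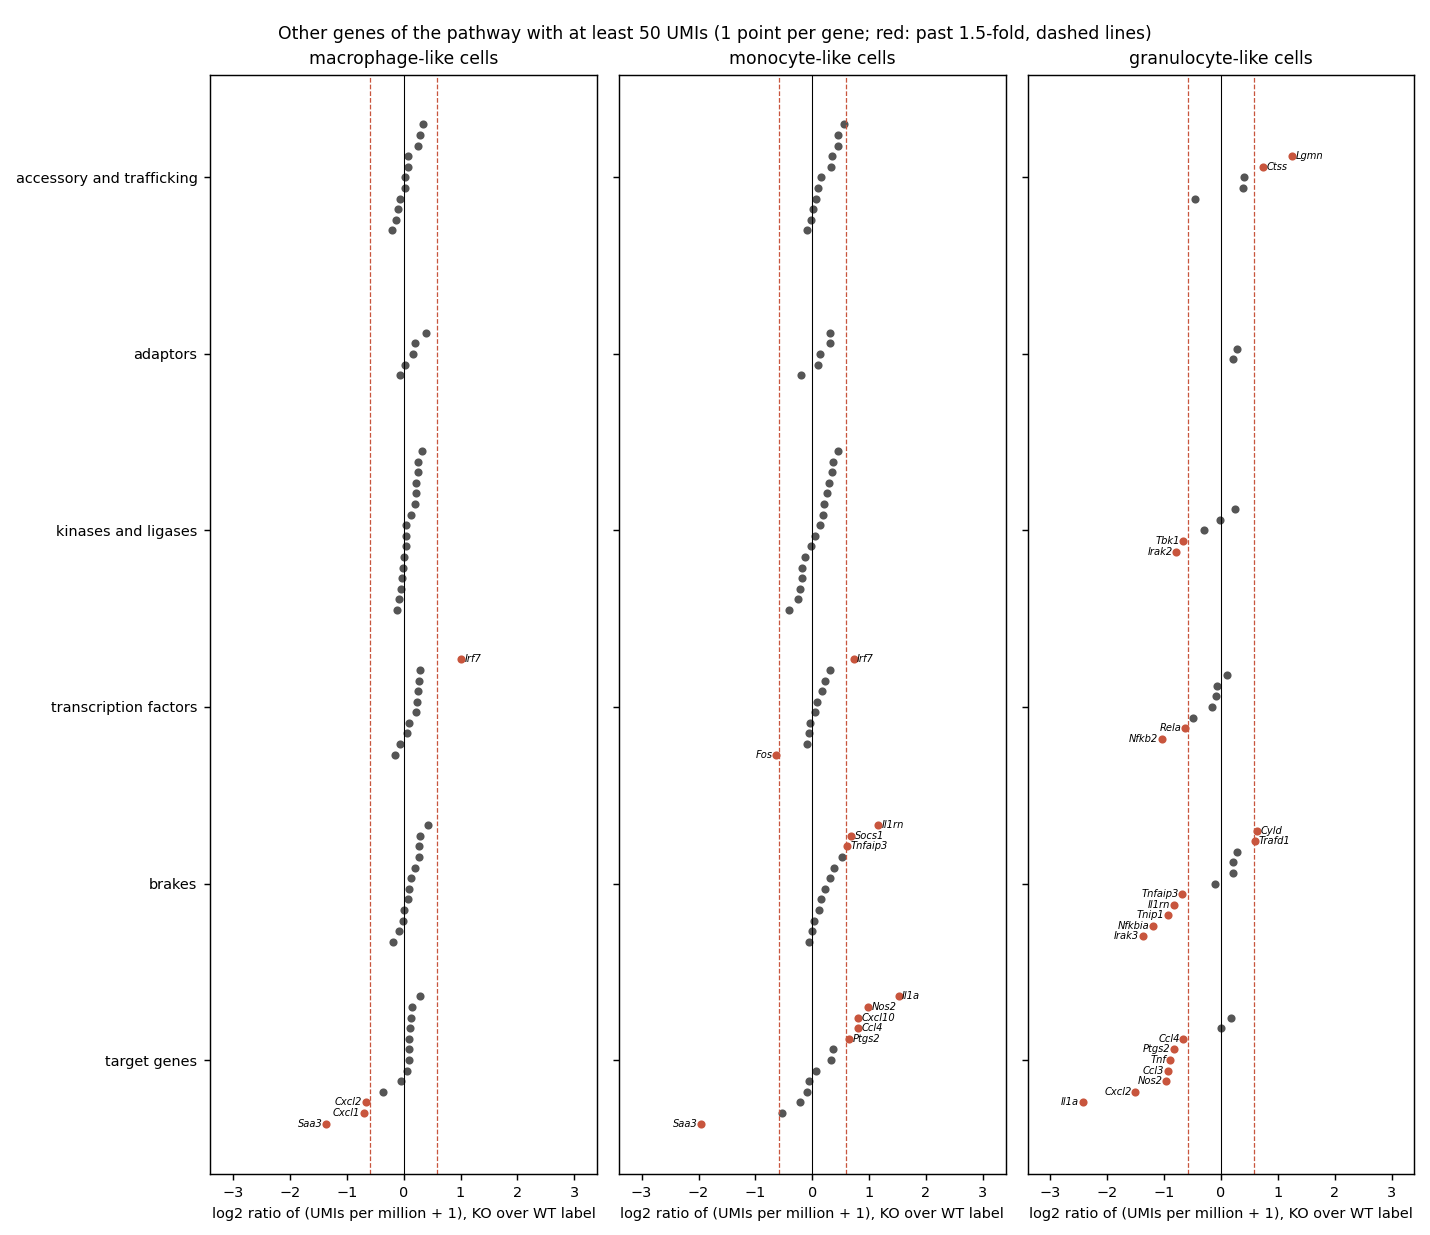
Log2 ratio of levels with 1 CPM added, KO-labelled over WT-labelled library, for the other genes of the pathway with at least 50 UMIs, 1 point per gene, grouped by role (rows) in 3 myeloid classes (panels). Red points are past 1.5-fold (dashed lines) and are named. Macrophage-like cells had 4 such genes, monocyte-like cells 11 and granulocyte-like cells 20, of which 16 were lower.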

How the data were processed

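Single-cell 3' libraries of sorted CD45+ tumour cells, 1 per genotype, were analysed from the filtered UMI count matrices. The deposited counts were made by the authors with Cell Ranger 4.0.0 and the mm10 build (submitters' processing notes), and are whole UMI numbers that had not been normalized. The members and gene lists were chosen with earlier results of these data known, and the thresholds of the cell gate were set after looking at the cells.

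Barcodes with at least 200 genes and at most 10% mitochondrial UMIs were kept. Doublets were removed by Scrublet score (scanpy 1.11.5) at 0.8% per 1000 cells, which took 256 and 532 barcodes. Each cell was then given the class of its highest marker score (at least 0.2, with at least 2 markers detected). Cells in which another lineage scored at least 0.5 times as high were set aside as mixed (421 and 398), and 321 and 485 cells stayed unnamed. Leiden clusters (leidenalg 0.10.2, resolution 1.0, 30 components, 20 neighbours, 2000 variable genes) were used for sub-clusters.

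UMIs were summed per class and library and scaled to CPM. Levels have exact Poisson intervals, shares Clopper-Pearson intervals and ratios exact conditional intervals, all at 95% and for counting error only. A count of 0 was given a limit of 3 UMIs in the text, or of 3 cells for a share, while the bars of the plots are exact Poisson intervals. There was no test and no p-value, since each group is 1 library of pooled mice. For shares, cells were thinned to 1000 UMIs and shallower cells were left out. The interval functions were tested on simulated data.

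The naming rule covered all 10 members in every class, though low ones are given there only as ranges or not printed. From the pathway lists, every gene past 1.5-fold with at least 50 UMIs in macrophage-like, monocyte-like or granulocyte-like cells was named, and always Myd88, Ly96, Unc93b1, Irak3, Tlr5, Tlr11 and Tlr12. For likeness, the 3 genes of highest r among genes reaching 20 CPM in a class were named.

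Alternatives were classes from named clusters, doublets kept, thinned cells, equal weight for each cell or cluster, median-of-ratios and trimmed-mean (edgeR 4.0.16, factors only) scaling, a stricter cell filter (500 genes, 5% mitochondrial UMIs), and the cell with most UMIs of a gene left out. A mixed ratio of 0.7, leaving out the unnamed clusters, and adding unnamed cells of granulocyte clusters were chosen after seeing the data. Python 3.11.15, NumPy 2.4.6, SciPy 1.17.1, pandas 2.3.3, matplotlib 3.10.9 and R 4.3.3 were used.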

Additional observations from a re-analysis of the deposited data

Results flagged for a closer look

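Cd14 was picked out because its ratio between the libraries lay on opposite sides of 0 in different cell classes. The log2 ratio of the KO-labelled over the WT-labelled library was 0.18 in macrophage-like cells (0.08 to 0.27) and 0.93 in T-like cells (0.02 to 1.91, from 15 and 34 UMIs), but -0.67 in granulocyte-like cells (-0.95 to -0.39). The difference between the classes was not tested, since each value compares 1 library with another. Of the macrophage-like cells, 16.4% and 22.5% were in the Inhba cluster, where Cd14 was highest, and within that cluster the log2 ratio was 0.10 (-0.07 to 0.27). It was 0.07 (-0.12 to 0.26) in the Ch25h cluster, -0.15 (-0.43 to 0.12) in the Hist1h2ap cluster and 0.62 (0.31 to 0.94) in the Ccl24 cluster, which as a whole was named monocyte. In thinned cells the macrophage-like ratio was -0.14 and the granulocyte-like ratio -0.40, so both then lay below 0. T-like cells should lack Cd14, and 2.08% and 2.44% of them had a UMI of it.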

How the results depend on the processing

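With 1 library for each genotype, leaving out a replicate was not possible. No paired analysis was possible because the labels give 1 pooled library per genotype and no shared replicate. In each alternative a member counted if it had 50 UMIs over both libraries before thinning or any other change. The number of such members past 1.5-fold in macrophage-like cells went from 0 to 1 in thinned cells, namely Tlr9, which kept 8 and 4 UMIs and so would fail the minimum there. In monocyte-like cells it went from 1 to 2 in thinned cells (Tlr4 with 23 and 107 UMIs left, and Tlr9 with 2 and 12, under the minimum) and to 0 with classes from named clusters, with equal weight for each cell, and without the unnamed clusters, the last of these chosen after seeing the data. With equal weight for each cluster Tlr9 was no longer past 1.5-fold in monocyte-like cells, but Tlr8 was. In granulocyte-like cells the number of members past 1.5-fold went from 1 to 0 in thinned cells and with the stricter cell filter. Thinning leaves fewer UMIs, and the cause was otherwise not tested. Over 44 ratios of a member in a class, 457 of 486 alternative values lay inside the counting interval of the main value and 29 lay outside it. The log2 ratio of Cd14 in granulocyte-like cells ran from -0.93 to -0.40 over 13 settings. With no minimum on UMIs, the share of all genes past 1.5-fold was 58.8% in granulocyte-like, 34.3% in cDC1-like and 30.9% in cDC2-like cells, and with no added CPM it was 4.42% in macrophage-like cells. Among the pathway lists, thinned cells gave 16 genes higher and 2 lower in monocyte-like cells, against 9 and 2, and 2 higher and 4 lower in macrophage-like cells, against 1 and 3. In thinned cells 17.4% and 16.3% of all genes of these classes were past 1.5-fold, against 4.59% and 2.37%. In granulocyte-like cells the lists gave 2 higher and 18 lower with trimmed-mean scaling and 3 higher and 13 lower with the stricter cell filter, against 4 and 16. In granulocyte-like cells, which were few and shallow, 5 members could be read.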
